A study of Mus musculus with 8 samples.

Results

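Bcl11b ChIP signal met the definition of a gained site at 196 of 63098 intervals in Bcl11b+/N440K thymocytes compared with Bcl11b+/+ thymocytes. An interval is a 201 bp window that the authors derived from their peak calls. Its value is given in CPM (reads per interval, scaled by library size and a normalization factor for each library), as deposited. A gained interval had a mean of 10 CPM or more over the 3 N440K libraries and a mean at least 2 times that of the 3 wild type libraries. Its lowest N440K library also lay above its highest wild type library. The choice therefore used all 6 ChIP libraries and the contrast itself, so the levels and ratios below describe the chosen intervals and are not tested. The same rule turned round, for signal lower in N440K, found 410 intervals.

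The transcription factor Bcl11b binds DNA through zinc fingers and recruits chromatin-modifying complexes. Developing T cells need it to commit to the T lineage and, later, to mature into CD4 and CD8 cells. Binding of such a factor is often densest at promoters and at enhancers inside or between genes, and a bound site is not by itself a regulated gene.

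The samples were freshly isolated mouse thymocytes, cross-linked with formaldehyde and immunoprecipitated with a rabbit antibody against Bcl11b. The tested animals carried 1 allele with the amino acid exchange N440K beside 1 wild type allele, and the comparison animals carried 2 wild type alleles. Each genotype had 3 ChIP libraries, and a pair of input libraries of the wild type was not analysed here. The labels do not say whether libraries came from separate animals, so the spread between libraries may be technical. They do not give the strain background of either genotype. The tables hold 1 value per interval and library, so signal was not separated by allele and has no input level beside it. Counts in all 93708 intervals summed to 1812952 to 2123877 in the N440K libraries and to 1787899 to 2661343 in the wild type libraries.

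Of the gained intervals, 6 overlapped the promoter of a protein-coding gene, here the RefSeq window from 250 bases before to 50 bases after a transcription start (GRCm38.p6, which shares its coordinates with mm10). They were 3.06% of the gained intervals, compared with 7.80% of the lower intervals and 16.4% of the whole table. Of all intervals whose N440K mean was in the range of the gained ones, 23.0% overlapped such a window. Of those whose wild type mean was in the range of the gained ones, 11.9% did. Neither range was matched in strength within its bounds. These 6 are shown because they are the gained sites whose sequence is at hand. Each is written 5′ to 3′ on the strand of its gene, and the capitals mark the bases that lie inside the gained interval.
Art2b (chr7:101581112-101581411, minus strand): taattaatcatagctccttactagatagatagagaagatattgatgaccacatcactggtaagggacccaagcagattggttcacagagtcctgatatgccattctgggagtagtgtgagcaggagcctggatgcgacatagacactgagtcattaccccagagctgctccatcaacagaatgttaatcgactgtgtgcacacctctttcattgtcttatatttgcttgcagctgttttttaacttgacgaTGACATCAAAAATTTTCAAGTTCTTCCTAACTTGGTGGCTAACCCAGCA
Wrap73 (chr4:154142122-154142421, plus strand): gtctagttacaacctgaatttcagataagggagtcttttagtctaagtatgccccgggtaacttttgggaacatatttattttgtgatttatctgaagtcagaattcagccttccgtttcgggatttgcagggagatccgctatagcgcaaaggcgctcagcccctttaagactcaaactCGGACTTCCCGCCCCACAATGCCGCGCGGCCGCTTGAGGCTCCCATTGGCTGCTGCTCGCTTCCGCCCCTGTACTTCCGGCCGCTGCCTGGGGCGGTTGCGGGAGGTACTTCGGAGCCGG
Plekhg5 (chr4:152096469-152096768, plus strand): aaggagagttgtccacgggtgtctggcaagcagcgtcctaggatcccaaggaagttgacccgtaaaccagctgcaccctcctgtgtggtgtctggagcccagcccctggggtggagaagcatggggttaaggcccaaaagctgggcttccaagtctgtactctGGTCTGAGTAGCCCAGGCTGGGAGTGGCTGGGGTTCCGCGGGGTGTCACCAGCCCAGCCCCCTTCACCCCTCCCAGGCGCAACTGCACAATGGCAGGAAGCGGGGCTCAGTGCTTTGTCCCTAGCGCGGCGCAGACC
Rhob (chr12:8499960-8500259, minus strand): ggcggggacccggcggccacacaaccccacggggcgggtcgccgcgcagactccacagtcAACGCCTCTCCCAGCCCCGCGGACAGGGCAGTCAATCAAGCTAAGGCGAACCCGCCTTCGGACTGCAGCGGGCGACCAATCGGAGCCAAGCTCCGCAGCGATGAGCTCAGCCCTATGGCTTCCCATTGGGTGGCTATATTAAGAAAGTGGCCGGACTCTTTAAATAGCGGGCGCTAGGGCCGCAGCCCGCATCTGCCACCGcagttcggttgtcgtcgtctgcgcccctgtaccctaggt
Dglucy (chr12:100778807-100779106, plus strand): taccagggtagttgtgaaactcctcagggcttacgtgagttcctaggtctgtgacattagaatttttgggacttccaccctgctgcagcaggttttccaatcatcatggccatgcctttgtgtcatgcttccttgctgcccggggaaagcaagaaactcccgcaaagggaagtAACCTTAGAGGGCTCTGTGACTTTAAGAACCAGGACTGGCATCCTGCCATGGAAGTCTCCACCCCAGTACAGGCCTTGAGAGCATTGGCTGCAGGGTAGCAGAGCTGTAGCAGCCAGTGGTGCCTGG
Haghl (chr17:25785289-25785588, minus strand): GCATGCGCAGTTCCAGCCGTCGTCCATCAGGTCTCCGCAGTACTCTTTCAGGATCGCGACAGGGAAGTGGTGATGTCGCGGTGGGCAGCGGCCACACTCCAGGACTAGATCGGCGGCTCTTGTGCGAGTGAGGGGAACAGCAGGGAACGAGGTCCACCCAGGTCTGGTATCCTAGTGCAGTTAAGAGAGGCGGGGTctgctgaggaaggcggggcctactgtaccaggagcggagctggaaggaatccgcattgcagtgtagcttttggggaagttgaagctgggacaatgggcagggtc

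The interval at Art2b covered 49 bases downstream of the listed start, while that at Rhob lay wholly inside its window. The listed starts of Art2b and Plekhg5 used here lie within longer gene bodies, with the intervals 4.43 and 18.6 kb from the nearest end. For Haghl, whose 3 listed windows all met the interval, the window with the longest overlap is shown. The windows had a GC content of 42.3% (Art2b) to 65.3% (Rhob), and the median over 32851 listed windows was 52.7%. They were searched on both strands for 5 words of 6 letters, with overlapping matches counted. TGACCA, a word bound by the human paralog BCL11A, occurred in the Art2b window, outside the gained interval, and in 13.6% of all listed windows. TGTGGT, the core of the Runx motif, occurred in the Art2b and Plekhg5 windows, again outside the gained intervals, and in 16.8% of all windows. Its variant TGCGGT occurred in the Rhob window and in 6.45% of all. CGGAAG, an Ets core, occurred 3 times in the Wrap73 window, of which 2 lay inside the gained interval, and in 16.9% of all windows. AGATAA, which GATA factors bind, occurred in the Wrap73 window outside the gained interval, and in 11.2% of all windows.

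The Art2b interval was the strongest gained site at a promoter. Art2b encodes an ADP-ribosyltransferase of the T cell surface. Its interval (chr7:101580960-101581160, overlapping also the noncoding gene Gm45995) had 44.9, 38.4 and 52.6 CPM in the N440K libraries, against 18, 18.9 and 26.6 CPM in the wild type libraries. All 3 N440K values stood above 38 CPM, and the rule itself keeps the genotypes from overlapping. A further gained interval 34.9 kb outside the gene had means of 12.9 ± 3.27 CPM in N440K and 4.82 ± 1.32 CPM in wild type (SD, n = 3 each). Art2 genes occur as near-identical copies, and reads shared between copies cannot be told apart. At the start of Wrap73, which encodes a WD repeat protein of the centrosome, the N440K libraries had 21.6, 22.6 and 13.0 CPM and the wild type libraries 7.44, 11.1 and 8.58 CPM. Rhob, the gene of a small GTPase, had 9.97, 17.1 and 14.1 CPM in N440K, against 6.82, 5.76 and 7.73 CPM in wild type. The other members at promoters had N440K means of 16.6 (Plekhg5, the gene of a guanine nucleotide exchange factor), 12.1 (Dglucy) and 10.3 CPM (Haghl).

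Gained intervals were mostly of middle strength in N440K and weak in wild type. The N440K mean ranged over the 196 intervals between 10 and 50.1 CPM with a median of 13.4 CPM. The wild type mean ranged between 1.05 and 21.2 CPM with a median of 5.65 CPM. Ranked among all 63098 intervals, the median gained interval stood at percentile 56.5 in N440K and at percentile 8.39 in wild type. The rule itself places them so. The reads behind these values numbered 54 to 269 per interval, with a median of 72, over the N440K libraries, and 7 to 137, with a median of 36, over the wild type libraries.

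**Figure D1:**
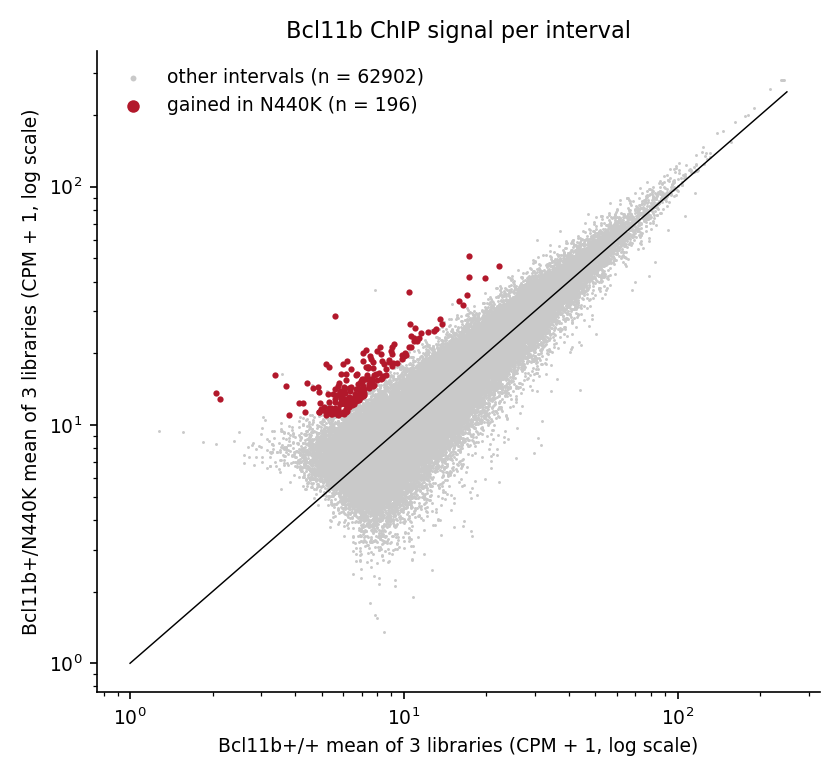
Mean Bcl11b ChIP signal of each interval in N440K (vertical) and wild type (horizontal) thymocytes, each a mean of 3 libraries in CPM plus 1 on log axes, with the line of equal signal. The 196 gained intervals (red) form the upper edge of the cloud, with N440K means of 10 to 50.1 CPM.

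Most gains were small. The ratio of means was under 2.5 at 133 intervals, between 2.5 and 3 at 41, between 3 and 5 at 17, and 5 or more at 5. The median ratio was 2.29, and against the wild type mean it was 2.34, 2.19 and 2.47 in N440K replicates 1, 2 and 3. The gap between the genotypes was narrow at many of them: the lowest N440K library was 1.03 to 6.4 times the highest wild type library, with a median of 1.46, and was at least 2 times it at 18 intervals. Over the whole table, all 3 N440K libraries lay above all 3 wild type libraries at 8.34% of intervals, and the N440K mean was at least 2 times the wild type mean at 0.84%.

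The edges of the definition cut through a continuum. By the mean, the intervals in Msra and Stau2 with 10.04 and 10.05 CPM were inside, and those at Tns3 and Gramd1b with 9.997 and 9.993 CPM were outside. By the ratio, those in Fggy and Ddc with 2.002 each were inside, and those at Ap3d1 with 1.999 and at the X-linked gene Hmgn5 with 1.998 were outside. By the overlap of libraries, the Steap3 interval, with a lowest N440K value of 6.77 CPM and a highest wild type value of 6.59 CPM, was inside, and an Itga9 interval with 9.41 and 9.44 CPM was outside. In all, 33 intervals passed both other criteria with libraries that overlapped.

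EdgeR's quasi-likelihood test across all 63098 intervals called 121 of the 196 higher in N440K (Benjamini-Hochberg adjusted p under 0.05), where 0.46% of all intervals were called higher and 1.14% in either direction. The rule used the same contrast, so this count is a description. DESeq2 called 16 (0.0333% of all intervals were called higher) and limma voom 81 (0.273%). Without 1 library, edgeR called 64 (without N440K replicate 1), 107 (N440K replicate 2), 66 (N440K replicate 3), 71 (wild type replicate 2) or 82 (wild type replicate 1 or 3). The share of all intervals called is not at hand for these fits, so nothing about the members is read from the differences. A further 169 intervals were called higher by edgeR and were no members, 125 of them with a ratio under 2, 35 with an N440K mean under 10 CPM and 12 with libraries that overlapped.

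Libraries that had no part in the choice were examined next. The rule was applied to the libraries of replicate numbers 2 and 3, then 1 and 3, then 1 and 2, and the remaining N440K and wild type library were compared at the intervals it chose. It chose 356 intervals without replicate 1, 443 without replicate 2 and 413 without replicate 3. In the left-out pair, N440K stood above wild type at 75%, 72.7% and 70.0% of them, in the same order, while this held for 49.9%, 50.7% and 49.8% of all intervals. Among all intervals with an N440K mean of 10 CPM or more in the other libraries, it held for 53.9%, 55.7% and 53.4%. The share was above either background in each of the 3 repeats. The repeats reuse the same libraries, which may be technical replicates, and each rests on a single left-out pair. Neighbouring intervals are not independent either, so the repeats are not separate tests.

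The size was smaller in the left-out pair. The chosen intervals had median ratios of 2.26, 2.26 and 2.28 in the libraries used to choose them. In the left-out pair the medians were 1.40, 1.30 and 1.24. Only in the left-out pair was 1 CPM added to each value, which by itself lowers a ratio above 1, so these medians are not like for like. With nothing added, a ratio of at least 2 recurred at 24.4%, 24.6% and 22.3% of the chosen intervals, and was found at 4.97%, 3.49% and 3.68% of all intervals. Of intervals with an N440K mean of 10 CPM or more in the other libraries, 2.74%, 1.89% and 1.73% had it. The opposite change, with wild type at least 2 times N440K, occurred at 2.53%, 3.39% and 4.12% of the chosen intervals. It occurred at 6.27%, 6.17% and 5.51% of all intervals, and at 1.88%, 1.81% and 1.64% of those with an N440K mean of 10 CPM or more. Intervals chosen as lower by the mirrored rule in 4 libraries were lower at least 2-fold in the left-out pair at 32.7%, 27.7% and 30.6%. The ratios of the 196 intervals, chosen on all 6 libraries, have no such left-out pair.

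**Figure D2:**
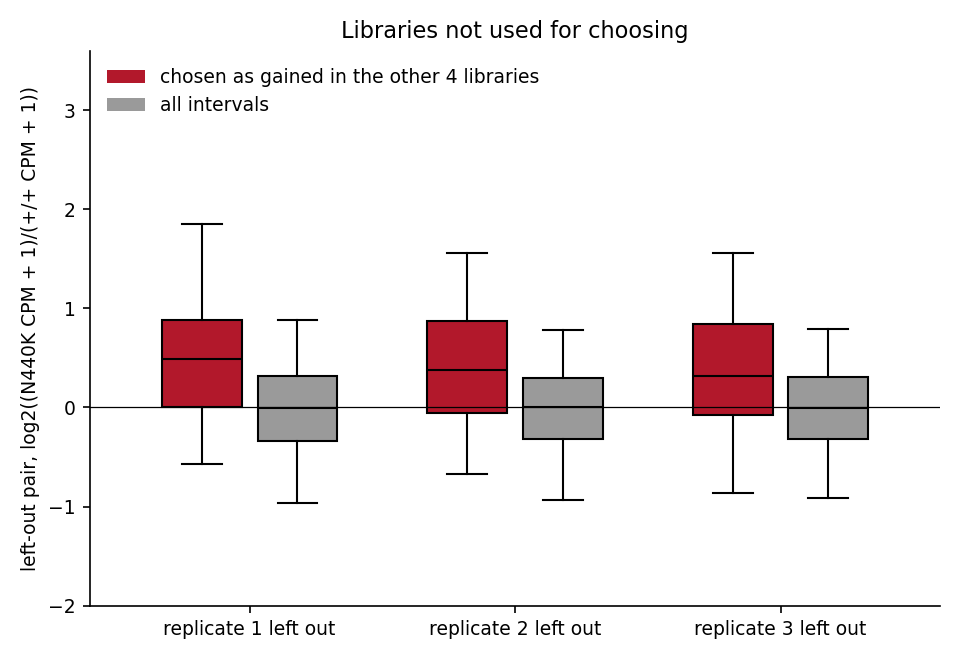
Log2 ratio of N440K to wild type (CPM plus 1) in the pair of libraries not used for choosing, for intervals chosen as gained in the other 4 libraries (red) and for all intervals (grey), with boxes for quartiles, lines for medians and whiskers for the 5th and 95th percentiles. The red medians are 0.49, 0.38 and 0.32 with replicate 1, 2 and 3 left out, and the grey medians are at or near 0.

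The gained interval with the most signal in N440K lay 1.41 kb outside Prss51, a serine protease gene, at chr14:64099088-64099288. It had 42.1, 52.5 and 55.7 CPM in N440K, against 16.7, 16.1 and 15.9 CPM in wild type. It was part of a group of 4 gained intervals within 19.4 kb. The others by Prss51 had 12.7, 8.54 and 16.7 CPM (chr14:64099698-64099898) and 10.5, 17.1 and 20.8 CPM (chr14:64099914-64100114) in N440K. Their wild type values were 2.48, 7.82 and 4.29 CPM and 2.48, 9.06 and 4.72 CPM. Both overlapped the noncoding gene 4930471C04Rik. The fourth, 4.09 kb outside Msra, the gene of a methionine sulfoxide reductase, had 16.6, 17.1 and 17.2 CPM in N440K and 3.72, 7.0 and 4.29 CPM in wild type. No interval of the table lay between these 4 that was not gained.

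Art2b ranked second by N440K mean, and intervals of Gm12253, Elavl4, Stk3 and Mgat5, described below, were also among the 12 strongest. The other 5 of these 12 had no second gained interval within 100 kb. A gained interval 23.6 kb from Ttc7b, which encodes a scaffold of a phosphatidylinositol kinase complex, had 34.9, 44.5 and 41.6 CPM in N440K, against 18, 15.6 and 22.7 CPM in wild type (chr12:100276997-100277197). At 5.08 kb from Olfm5 the N440K libraries had 31.6, 31.7 and 39.0 CPM and the wild type libraries 16.7, 15.6 and 15.5 CPM. At 54.3 kb from Pcsk1, the gene of a prohormone convertase, they had 31.0, 22.0 and 43.2 CPM in N440K and 11.2, 16.1 and 17.6 CPM in wild type. The N440K libraries were close together at Olfm5 and spread nearly 2-fold at Pcsk1. In Xxylt1, which encodes a xylosyltransferase that extends sugars on Notch receptors, the N440K libraries had 28.8, 25.6 and 22.4 CPM and the wild type libraries 14.3, 12.8 and 11.2 CPM. In Trappc12, a gene of a vesicle tethering complex, they had 26.6, 23.8 and 26 CPM in N440K and 14.3, 7.41 and 6.87 CPM in wild type. Of the 12 intervals with the largest difference of means, 11 were also among the 12 with the highest N440K mean, the exception being the interval in Pdcd1lg2 described below.

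**Figure D3:**
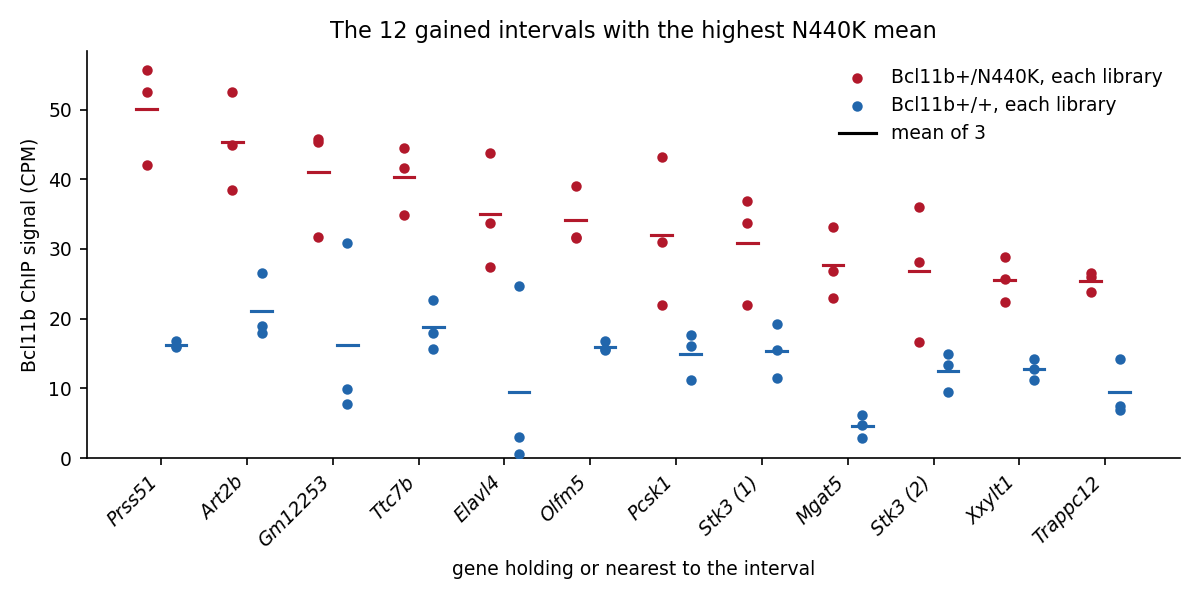
Bcl11b ChIP signal in CPM in each N440K (red) and wild type (blue) library at the 12 gained intervals with the highest N440K mean, labelled by the gene holding or nearest to them, with bars for the mean of 3. N440K means fall between 25.5 and 50.1 CPM, and at Gm12253 and Elavl4 a single wild type library stands near the N440K values.

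The largest ratios belonged to sites with little wild type signal. An interval over Ighv1-46, a variable segment listed as a pseudogene in the immunoglobulin heavy chain locus, had 13.8, 11.0 and 13.0 CPM in N440K, against 0.62, 0.823 and 1.72 CPM in wild type, a ratio of 12 (chr12:114977673-114977873). A second gained interval in the locus, at chr12:115605028-115605228, had a ratio of 2.44. Segments of this locus resemble each other closely, so reads could be shared among copies. Cdh13, the gene of an atypical cadherin anchored to the membrane by a lipid, held a pair of gained intervals. The first (chr8:118589965-118590165) had 12.2, 9.15 and 14.1 CPM in N440K and 1.24, 0.412 and 1.72 CPM in wild type. The second (chr8:118612511-118612711) had 15, 9.15 and 21.3 CPM in N440K and 1.24, 2.88 and 3.00 CPM in wild type. The rule itself required non-overlapping libraries of this pair. The 2 other tested intervals assigned to Cdh13 also had non-overlapping libraries, higher in N440K, as had 8.34% of all intervals. A further Cdh13 interval, at chr8:118830439-118830639, was in the count table but not in the normalized one. It held 26, 5 and 26 reads in the N440K libraries and 3, 3 and 5 reads in the wild type libraries.

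A gain of 6.01-fold lay in Mgat5, whose enzyme adds branches to N-glycans, with 33.2, 26.8 and 22.9 CPM in N440K, against 6.20, 2.88 and 4.72 CPM in wild type. On chromosome 11, a pair of gained intervals lay 65.8 and 92.1 kb from Gm11677. The nearer one had 12.7, 14.0 and 14.1 CPM in N440K and 3.10, 2.88 and 2.15 CPM in wild type. The farther one had 17.2, 15.3 and 18.7 CPM in N440K and 3.72, 3.71 and 5.15 CPM in wild type. At 19.3 kb from Slc35f2, a solute carrier gene, the ratio was 3.84, with means of 16.6 and 4.32 CPM in N440K and wild type. In Dnm3, the gene of a dynamin, the ratio was 3.63, with means of 11.3 and 3.12 CPM, and 5.98 without wild type replicate 1. A gained interval at chr12:26145335-26145535, with no protein-coding gene within 100 kb, had a ratio of 4.06, and its wild type libraries were uneven at 8.67, 1.65 and 0 CPM. Without wild type replicate 1 its ratio was 17.

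Gained intervals less than 1 kb apart were joined into 187 sites, of which 6 held more than 1 interval. These lay in Stau2, Elavl4, Cacna1c and, at 2 places, Stk3, and beside Prss51. Stau2 encodes a double-stranded RNA-binding protein that carries RNA in neurons. It held 4 gained intervals within 10.3 kb, and summed over them the N440K libraries had 66.4, 46.4 and 41.6 CPM, against 23.5, 15.6 and 18.9 CPM in the wild type libraries. N440K replicate 1 was the highest there, and the rule itself keeps these sums from overlapping between genotypes. Of the 8 other intervals of Stau2, 4 had a higher mean in N440K. Cacna1c encodes the pore subunit of an L-type calcium channel. Summed over its 2 gained intervals, the N440K libraries had 40.4, 25 and 39.0 CPM and the wild type libraries 10.5, 19.8 and 10.7 CPM, and its 3 other intervals had a higher mean in N440K as well. Stk3, the gene of a kinase of the Hippo pathway, held 6 gained intervals within 15.9 kb. The strongest (chr15:34909246-34909446) had 33.8, 22.0 and 37.0 CPM in N440K, against 19.2, 11.5 and 15.5 CPM in wild type. Of its 10 other intervals, 9 had a higher mean in N440K.

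A single wild type library set the size of some gains. At 14 of the 196 intervals the highest wild type library was at least 2 times both others. Leaving that library out, which by this choice could only raise the ratio, moved it by over 1.5 times at 10 of the 14. The ratios were then 2.91 to 19.3. Leaving out either of the others lowered the ratio, to 1.69 in Stau2, 1.99 at Plekhg5 and 2.25 at an Elavl4 interval at the lowest. All 5 of the 14 on chromosome 4 had wild type replicate 2 as the highest: the 3 intervals of Elavl4, which encodes a neuronal RNA-binding protein, that near Padi1, and that at the promoter of Plekhg5. Summed over the Elavl4 intervals, the N440K libraries had 71.4, 52.5 and 78.1 CPM and the wild type libraries 3.72, 48.2 and 5.58 CPM, so wild type replicate 2 stood near the N440K libraries and the others far below. At Plekhg5 the N440K libraries had 16.6, 19.5 and 13.5 CPM, and the wild type libraries 2.48, 11.9 and 4.72 CPM. Without wild type replicate 2 the ratio there was 4.60 in place of 2.6, and at the 3 Elavl4 intervals it was 12.9 in place of 3.14, 9.79 in place of 3.64 and 19.3 in place of 3.71. Near Padi1 it was 9.71 in place of 3.13. On chromosome 11 the highest was wild type replicate 3 at both Gm12253 and Trim58, which lie within 1 Mb of each other. At Gm12253 (chr11:58436912-58437112) the N440K libraries had 45.4, 31.7 and 45.8 CPM and the wild type libraries 9.91, 7.82 and 30.9 CPM. Without replicate 3 the ratio was 4.62 in place of 2.53 at Gm12253 and 4.84 in place of 2.81 at Trim58.

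Among N440K libraries, replicate 3 was the highest at 97 of the 196 intervals (49.5%), replicate 1 at 58 (29.6%) and replicate 2 at 41 (20.9%). Over the whole table the shares were 33.0%, 32.1% and 34.9%. The highest N440K library was at most 2.63 times the lowest, with a median of 1.47. The part of replicate 3 in the choice of members was not tested beyond leaving it out, which gave 256 intervals, 144 of them among the 196.

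Genes of T cell development held gained intervals at shares near that of the whole table. Genes were grouped into 14 lists, some of which include genes already known to gain signal in these libraries, so their counts support no theme. Over all lists 16 of 1947 intervals were gained (0.822%), where 0.311% of the whole table was. T-lineage identity genes had 465 intervals, of which 2 were gained (0.43%) and 6 were lower by the mirrored rule, with a median log2 ratio of -0.04 over the list and 0 over the table. The gained ones lay 0.12 kb from Zbtb7b, the regulator of the CD4 fate, and in Runx3, a regulator of the CD8 fate. The Zbtb7b interval had 17.7, 25.6 and 17.7 CPM in N440K, against 8.67, 9.88 and 10.3 CPM in wild type. The Runx3 interval had 11.6, 16.5 and 14.1 CPM in N440K, against 4.34, 8.65 and 4.72 CPM in wild type. No interval assigned to Bcl11b itself was gained.

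Of 346 intervals of T cell receptor signalling genes 2 were gained (0.578%) and 1 was lower. Among them was an interval in Orai2, a gene of the store-operated calcium channels, with 21.0, 14.6 and 16.7 CPM in N440K and 4.96, 7.41 and 7.73 CPM in wild type. Immune checkpoint genes had 96 intervals, of which 2 were gained and 0 lower. In Pdcd1lg2, the gene of the PD-1 ligand PD-L2, the N440K libraries had 21.6, 25 and 27.1 CPM and the wild type libraries 13.0, 8.65 and 8.16 CPM. At 14.0 kb from Tnfrsf14, which encodes the receptor HVEM of the inhibitory protein BTLA, they had 18.8, 23.8 and 20.3 CPM in N440K and 6.20, 11.9 and 6.44 CPM in wild type.

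Cytokine receptor genes had 208 intervals with 1 gained and 1 lower. The gained one lay 85.7 kb from Ifngr1, a chain of the interferon gamma receptor, with means of 10.7 and 4.76 CPM in N440K and wild type, and edgeR did not call it. Natural killer and innate lymphoid genes had 114 intervals with 1 gained, 8.26 kb from the NK receptor gene Klrb1c, and 2 lower. There N440K replicates 1 to 3 had 20.5, 15.3 and 9.89 CPM and the wild type libraries 6.82, 5.76 and 7.73 CPM. Regulatory T cell genes, Notch pathway genes, and homing and egress genes had 0 gained and 0 lower among 114, 157 and 156 intervals. Early progenitor genes had 0 gained and 2 lower among 84, with a list median of -0.25. Natural killer and innate lymphoid genes, at 0.877% gained, stand for other cells that a thymus holds. Among further such genes, 0 of 30 intervals of B cell genes, 0 of 65 of myeloid and dendritic genes and 0 of 20 of thymic epithelial genes were gained. With 0.311% gained over the whole table, lists of these sizes could hold 0 at that share too, so nothing is read from the lists with 0.

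Genes better known from the nervous system held others. Of 98 intervals of neuronal RNA-binding and synaptic genes 5 were gained (5.10%) and 0 lower, 3 of them in Elavl4 and therefore not separate loci. The others lay in Msi2, an RNA-binding protein gene also active in blood stem cells, and in Lgi1, which encodes a secreted synaptic protein. In Msi2 the N440K libraries had 19.4, 21.4 and 17.7 CPM and the wild type libraries 7.44, 7.0 and 6.44 CPM. Cadherins and protocadherins had 78 intervals, of which 3 were gained (3.85%), the pair in Cdh13 and an interval in Cdh22, and 1 lower. In Cdh22 the N440K libraries had 12.7, 13.4 and 12 CPM, against 4.96, 2.88 and 3.86 CPM in wild type. The median log2 ratio was -0.08 over the neuronal list and -0.06 over the cadherin list, so the lists as wholes did not stand above the table. Elavl4, Msi2, Lgi1 and Cdh13 were put on these lists with their gains known.

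Position was not used by the rule. Within 1 kb of either end of a protein-coding gene lay 17 of the 196 intervals (8.67%), compared with 67 of the 410 lower intervals (16.3%) and 34.2% of the whole table. Stronger intervals are more often at gene ends: of all intervals whose N440K mean was in the range of the gained ones, 42.6% lay there, and of those whose wild type mean was in their range, 30.1%. Members chosen without 1 library gave 6.69% to 15.2%, with 15.2% without N440K replicate 3 and 14.3% without wild type replicate 2. Of the 17, 6 were among the 60 members with the most N440K signal: those at Actr1a (a dynactin subunit gene), Mettl17, Pm20d1, U2af2 (a splicing factor gene), Zbtb7b and Wrap73. Their N440K means were 19.1 to 23.5 CPM and their wild type means 9.05 to 11.3 CPM.

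Inside gene bodies lay 110 intervals (56.1%, against 61.6% of the table), of which 100 were over 1 kb from any end (51.0%, against 37.5% of the table). A further 66 lay outside but within 100 kb of a gene (33.7%, against 34.3% of the table), and 20 (10.2%, against 4.15% of the table) had no gene within 100 kb. The genes that held them were long, with a median length of 112 kb over 110 intervals, compared with 107 kb for the lower intervals and 52.2 kb for all intervals inside genes. Genes of 100 kb or more held 28.6% of the gained, 27.3% of the lower and 18.9% of all intervals. Gained intervals also stood more apart from other intervals: the nearest interval of the table was a median of 2.71 kb away, against 1.10 kb for the lower ones and 0.368 kb over the table. No chance test was applied to these shares, and neighbouring intervals are not independent.

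**Figure D4:**
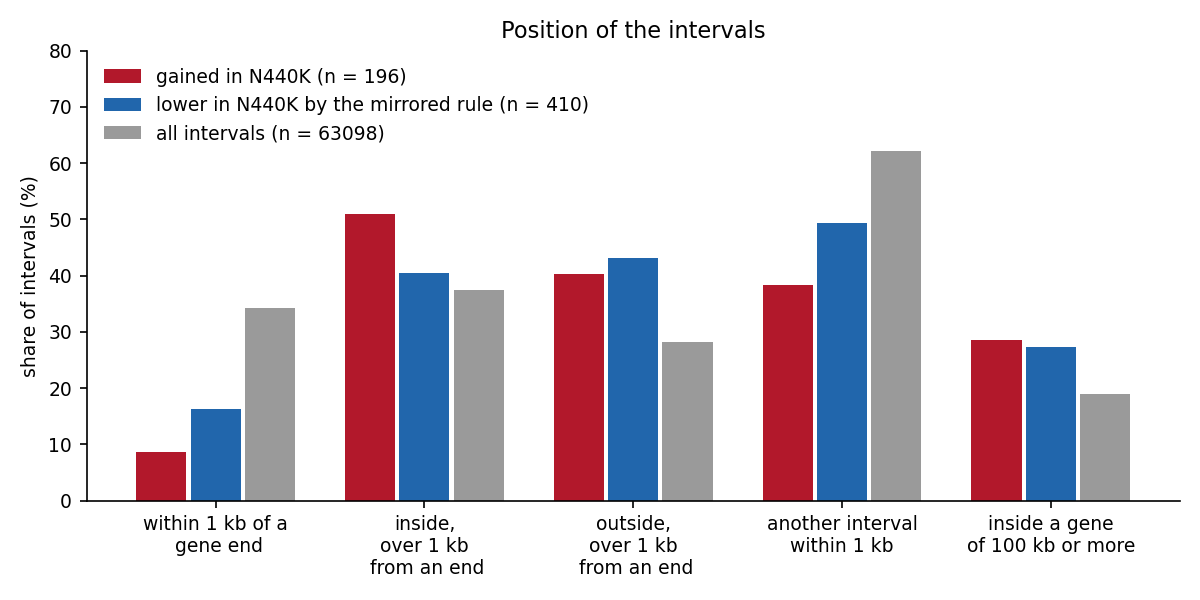
Share of intervals in each position, as a percentage of the gained intervals (red), of those lower in N440K by the mirrored rule (blue) and of all intervals (grey). Within 1 kb of a gene end lie 8.67%, 16.3% and 34.2%, and another interval lies within 1 kb of 38.3%, 49.3% and 62.2%.

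Gained intervals were spread over all autosomes. Their share of the tested intervals was highest on chromosome 12, which carries Bcl11b, with 17 of 2560 (0.664%), and on chromosome 14, with 14 of 2213 (0.633%), where 4 were those by Prss51 and Msra. It was lowest on chromosome 3, with 3 of 3084 (0.0973%). Chromosome X had 0 of 1131, and 9 of its intervals were lower by the mirrored rule. Were intervals independent, 0 would allow a share of up to 0.265%, but neighbours are not, so this is no firm limit. The X-linked Hmgn5 interval missed the rule only by its ratio of 1.998. On chromosome 12 the lower intervals also made up their largest autosomal share, 43 of 2560 (1.68%, against 0.65% over the table).

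Some gained intervals came in groups. Another gained interval lay within 10 kb of 22 of the 196 (11.2%), and within 100 kb of 37 (18.9%). For the lower intervals these shares were 16.6% and 32.7%. The 37 formed 14 groups spanning 1.02 to 87.7 kb. Within these spans lay 26 other intervals of the table, 20 of them with a higher mean in N440K. The group by B4galt5 held 16 of the 26, with 10 higher.

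Intervals next to gained ones mostly had a higher mean in N440K too, by less. Those under 1 kb away that were not gained themselves numbered 94, and 93.6% had a higher mean in N440K, with a median log2 ratio of 0.44 (means plus 1 CPM). From 5 to 10 kb the median was 0.23 and 68.9% of 161 were higher, and from 50 to 100 kb it was 0.03 and 53.5% of 980 were higher, compared with 50.2% of all intervals that were not gained. Around intervals lower by the mirrored rule, the medians were -0.53 under 1 kb, -0.17 from 5 to 10 kb and -0.05 from 50 to 100 kb. Per the labels' protocols, fragments averaged about the length of an interval, so the nearest neighbours could share reads. These neighbours are part of the same contrast and lie beside intervals chosen for it, so their values are not a test.

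**Figure D5:**
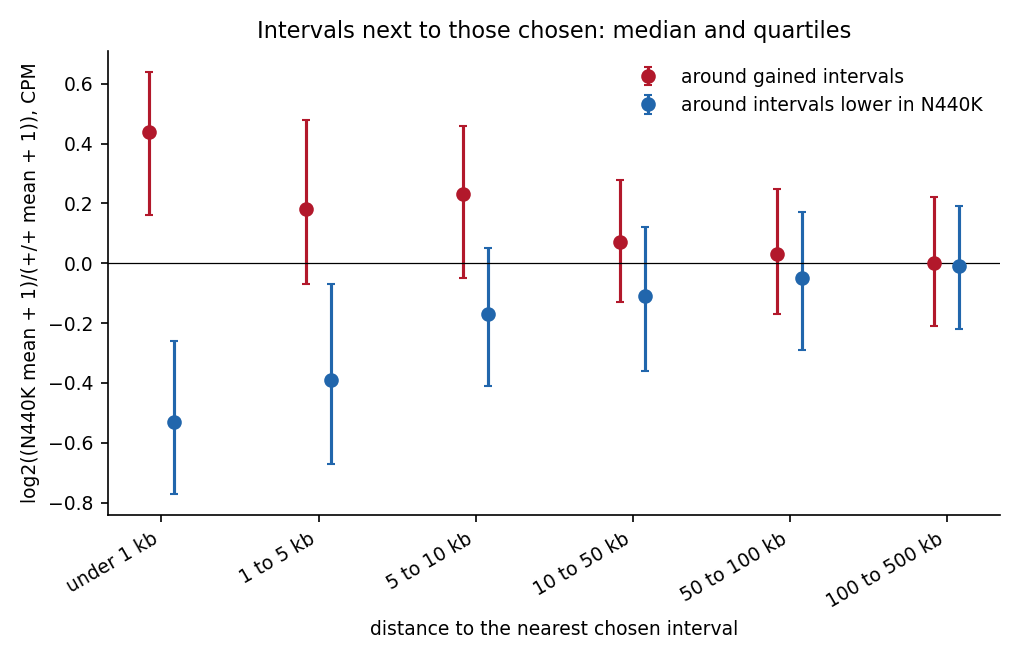
Log2 ratio of N440K to wild type means (CPM plus 1) of intervals by their distance from the nearest gained interval (red) or the nearest interval lower in N440K (blue), the chosen intervals themselves left out, with points for medians and bars for quartiles. The red median is 0.44 under 1 kb and 0.03 from 50 to 100 kb, and the blue median is -0.53 and -0.05.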

How the data were processed

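The authors deposited read counts for 93708 intervals of 201 bp in 6 ChIP libraries. They also deposited CPM values for 63098 of these. Within a library CPM values were proportional to the counts, and scaling them back gave whole reads for 100% of the values (tolerance 0.01). Per the submitters' processing notes, the tools were edgeR 3.38.2, MACS2, Bowtie2 2.3.5, fastp 0.20.0, bedtools and SAMtools 1.9, with no roles given, and the build was mm10. No source says if peak calling pooled the libraries. Scaling by library size and TMM factor would hide an even rise or fall of all binding. Starts are counted from 1.

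Counts were tested with edgeR 4.0.16 (filterByExpr, TMM, quasi-likelihood test, two-sided, Benjamini-Hochberg over all intervals, genotype as the only term), DESeq2 1.42.0 and limma 3.58.1 voom, in R 4.3.3. The fit was tested on simulated data. Shares and ratios were computed in Python 3.11.15. Genes came from RefSeq on GRCm38.p6. An interval was assigned to the shortest protein-coding gene holding its midpoint, otherwise to the nearest within 100 kb. Only promoter windows listed in the RefSeq table were searched. No other genome sequence was used.

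The members and the 14 gene lists were chosen with earlier results of these data known. Named intervals were the 12 with the highest N440K mean, the 12 with the largest difference and the 12 with the largest ratio. Others were those in sites of 2 or more, on a list, at gene ends among the 60 strongest, and next to each threshold. One interval on a list is not reported here. Intervals at promoters, uneven in wild type, or in groups of neighbours were named after their values were seen. Alternatives were other thresholds, scalings, filters and tools, a replicate block and leaving out libraries, and the fit on reads recovered from CPM values was added after seeing the data.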

Additional observations from a re-analysis of the deposited data

How the results depend on the processing

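The 196 gained intervals became 456 with an N440K mean of 5 CPM, 27 with 20 CPM, 1168 with a ratio of 1.5 and 22 with a ratio of 3. Leaving out libraries, which asks less of the rule, gave 256 to 443, among them 359 without N440K replicate 2, 340 without wild type replicate 3. The intervals chosen without a same-numbered pair held 139 to 166 of the 196. Total counts, loess offsets, overlap allowed and the whole count table gave 193 to 245. Of the 196, edgeR called 121, 16 were called by DESeq2, 10 against a fold of 1.5 and 52 at an adjusted p of 0.01. The last 2 settings ask for more, and for DESeq2 the cause was not tested. Without 1 library edgeR called 64 to 107. For these and the 2 stricter settings the share of all intervals called is not at hand, so the counts say nothing particular to the members. No fit gave any of the 196 a lower N440K signal, which the rule, by asking for libraries that do not overlap, had nearly fixed in advance. Within 5 kb of a gene end lay 23.5%, and members chosen without 1 library gave 6.69% to 15.2% within 1 kb. The share with another member near was 11.2% at 10 kb, 18.9% at 100 kb and 9.12% to 15.9% without 1 library. The median ratio stayed between 2.23 and 2.41. With replicate number as a block, 122 were called, again without a share over all intervals. The labels do not say whether an equal replicate number marks a shared batch. For the deviations, the correlation was -0.00372 between the libraries numbered 1, 0.0278 between those numbered 2 and 0.0577 between those numbered 3. N440K replicates 2 and 3 matched the wild type library of their own number best. N440K replicate 1 matched wild type replicate 2 best, at 0.0173. Values this small neither show nor exclude a shared batch. At 54 to 269 N440K reads an interval, depth limits single ratios.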

Other observations

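Beside the Cdh13 interval described above, 1 more interval of the count table met the rule without being in the normalized table. It lay at chr19:59680467-59680667, with no protein-coding gene within 100 kb, and held 56, 6 and 8 reads in N440K replicates 1, 2 and 3 and 4, 7 and 8 reads in the wild type libraries, so 1 library made up its N440K mean of 12.9 CPM.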
